A study of Mus musculus with 47 samples.

Results

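The genes encoding mitochondrial ribosomal proteins were followed across 2 brain regions of mice that carried a transgene or not and that ate standard chow or a high-fat diet. Members were all protein-coding genes whose symbol begins with Mrpl (large subunit) or Mrps (small subunit) followed by a digit, after the Ensembl identifiers of both deposited count tables had been matched to GENCODE symbols. This gave 78 genes of 35032 gene rows, 77 of which had a row in the brainstem table and 78 in the hippocampus table. In each region 76 of them, 48 Mrpl and 28 Mrps genes, reached the mean count of 50 per library that was required for testing.

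Poly(A) RNA was sequenced from 47 libraries of male C57BL/6 mice aged 12 months. TG mice were homozygous for a transgene encoding the A30P mutant of human alpha-synuclein. It is expressed from the Thy1 promoter, which is active in neurons, so its expression in other cell types is not modelled. WT mice came from a parallel colony without the transgene, and both genotypes were kept from the age of 5 weeks on standard chow (SD) or high-fat diet (HFD). The groups were WT_SD, WT_HFD, TG_SD and TG_HFD, with 6 libraries each in each region except 5 for WT_SD in brainstem. Brainstem here was the medulla, and the hippocampus was the other tissue.

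Mitochondria carry their own ribosomes, which translate the few proteins that the mitochondrial genome encodes, all of them subunits of the respiratory chain complexes or of ATP synthase. Every protein of the mitoribosome is encoded in the nucleus, made in the cytosol and imported. Part of these proteins descend from ribosomal proteins of bacteria, and the others were acquired in the mitochondrial lineage. In the brain, neurons depend on respiration for most of their ATP, and inherited defects in several of these genes affect the nervous system.

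Library totals ran from 10020784 to 15078812 counts in brainstem and from 11945971 to 17328447 in hippocampus. Markers matched the tissue labels. The 5 genes listed for hindbrain neurons summed to 304 to 536 CPM (counts per 1000000 of the normalized library size) in brainstem and to 0 to 0.516 CPM in hippocampus, and the 5 listed for hippocampal excitatory neurons summed to 59.6 to 103 CPM in brainstem and 467 to 594 CPM in hippocampus. Choroid plexus markers, of a neighbouring tissue, varied between brainstem libraries from 11.5 to 2920 CPM in sum.

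Levels were first compared between the genes, as reads per kilobase of exon, per 1000000 of the normalized library size (RPKM). Mean RPKM of the 76 tested genes ran from 1.53 to 43.3 in brainstem, with a median of 9.93, and from 1.57 to 38.4 in hippocampus, with a median of 8.41. Mrpl genes had a median of 10.8 RPKM in brainstem and 9.46 in hippocampus, and Mrps genes had medians of 8.89 and 7.38. The genes kept nearly the same order in both regions, with a Pearson r of 0.961 for log2 RPKM and a Spearman rho of 0.954 across the 76 genes, a description of genes that share the same exon lengths in both regions.

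Mrpl41, a large-subunit protein without a bacterial counterpart, stood first in both regions at 43.3 ± 5.28 RPKM in brainstem (SD, n = 23) and 38.4 ± 3.20 in hippocampus (SD, n = 24). In brainstem it was followed by Mrps21 (39.8 ± 3.45), a small-subunit protein with a bacterial homolog, by Mrpl27 (32.6 ± 3.18), whose bacterial homolog reaches the peptidyl transferase centre, and by Mrpl12 (30.9 ± 4.78), the protein of the stalk that recruits translation factors. The brainstem levels of Mrpl41 and Mrps21 differed by about the SD of Mrps21 and by less than that of Mrpl41. Those of Mrpl27 and Mrpl12 differed by less than either SD. In hippocampus Mrps33 (33.4 ± 2.76), a small-subunit protein specific to mitochondria, came second, before Mrps21 (30.9 ± 3.01) and Mrpl27 (27.7 ± 2.33). Mrps33 and Mrps21 differed there by less than their spread, while Mrpl27 lay below Mrps21 by slightly more than its SD.

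At the low end, Mrpl33, a small large-subunit protein with a bacterial homolog, had 1.53 ± 0.260 RPKM in brainstem and 1.57 ± 0.140 in hippocampus. Mrps35, of the small subunit, had 2.06 ± 0.196 and 1.60 ± 0.173 RPKM. With the length of the longest transcript in place of the union of all exons, Mrpl33 rose to 4.10 and 4.19 RPKM and Mrps21 to 60.2 and 46.7, so the order depends on the length model. The 2 genes that were not tested were lower still. Mrps34, a small-subunit protein, had a mean count of 4.391 in brainstem and 10.83 in hippocampus, and 77.8% of its exonic bases are also exons of Nme3 or Mapk8ip3. Mrpl53, of the large subunit, had no row in the brainstem table and between 0 and 1 counts per hippocampus library, and shared 88.0% of its exonic bases with Gm42688 or Ccdc142os. Mrps25 shared 69.8% with Nr2c2 and was counted at a mean of 339.4 in brainstem, so its value is uncertain, and 33 of the 78 genes shared at least some exonic bases with another gene.

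**Figure D1:**
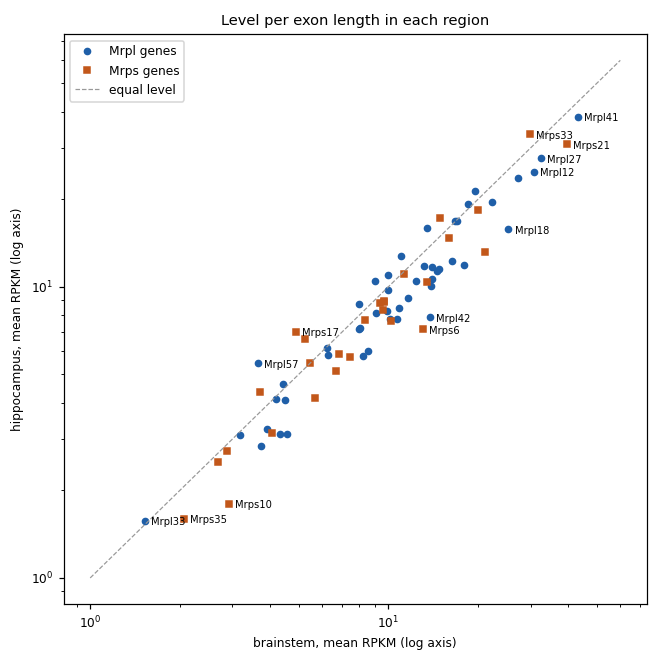
Mean RPKM of the 76 tested genes in brainstem (horizontal, log axis) and hippocampus (vertical, log axis), with Mrpl genes as circles, Mrps genes as squares and a dashed line at equal level. Levels spread from 1.53 to 43.3 RPKM in brainstem, Mrps6, Mrpl42 and Mrpl18 lie below the line, and Mrps17 and Mrpl57 lie above it.

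The main difference in these genes was between the regions. Of the 76 genes, 29 were lower in hippocampus than in brainstem, 3 were higher and 44 did not pass the test, which called a gene where the log2 fold change reached 0.3 in size and the p adjusted by Benjamini-Hochberg did not exceed 0.05 (edgeR's quasi-likelihood test over 13993 genes). Among all 13993 genes 31.6% were called lower and 29.8% higher, so the share of 38.2% lower was near the background while the share of 3.95% higher was well below it. The changes were small, 1.24-fold to 1.84-fold for the genes called lower, and the median absolute log2 fold change was 0.23 against 0.41 over all genes. Without the fold threshold 51 genes were lower and 11 higher, which is 67.1% and 14.5% of the 76 against 44.9% and 42.2% of all genes, and the median log2 fold change was -0.17 against -0.02 over all genes.

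Direction was then compared between the genotype and diet groups. All 32 called genes had the same sign in each of the 4 groups, with a smallest group difference of 0.165 on the log2 scale. They were called on the mean of these groups, which favours agreement in sign. Of all 76 genes, 66 had the same sign in the 4 groups and the others did not. In 10 genes called lower and in 1 called higher, CPM values of the 23 brainstem and 24 hippocampus libraries did not overlap at all, which is 13.2% and 1.32% of the 76 genes against 17.5% and 17.9% of all genes. Region and anything done separately for each region cannot be told apart here, and in bulk tissue fewer cells of a type and less RNA per cell cannot be told apart either. Both tissues were taken from the same animals according to the study, but the labels do not tie a brainstem library to a hippocampus library of the same mouse. All 47 libraries therefore entered as independent samples although mice are shared, and the p-values of the regional test do not take this into account. Libraries of the same group and number in both regions were also blocked as if from 1 mouse, which left 17 pairs. This block, chosen after seeing the data, again called 29 genes lower and 3 higher. The numbers did not meet the limit set for pairing, a correlation above 0.1 in every pair, as only 8 of the 17 pairs reached it. The block therefore cannot show what the sharing of mice does to the p-values.

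**Figure D2:**
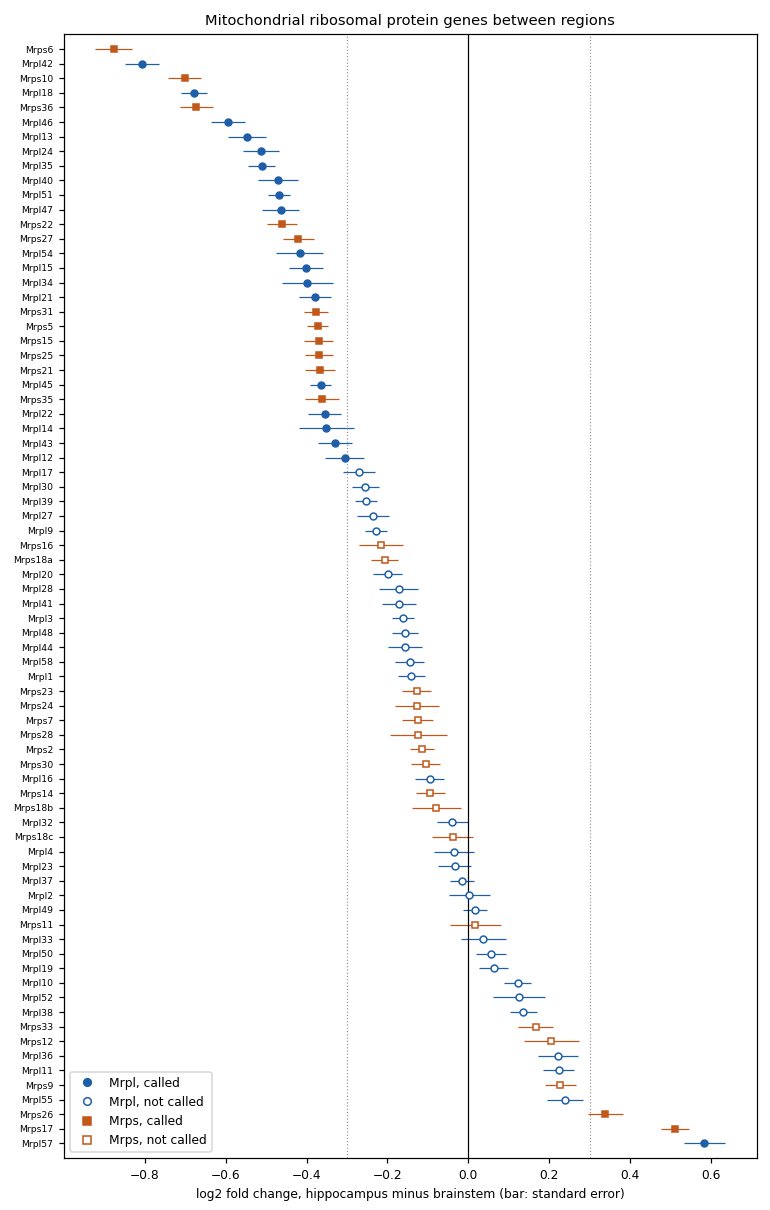
Log2 fold change of each of the 76 genes, hippocampus minus brainstem, with standard errors, Mrpl genes as circles and Mrps genes as squares, filled where called. Dotted lines mark 0.3 in either direction. The ranking runs from Mrps6 at -0.88 to Mrpl57 at 0.58, with 29 filled symbols on the left and 3 on the right.

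Among small-subunit genes, 11 of 28 were called lower in hippocampus and 2 higher, beside 31.6% and 29.8% of all genes. Mrps6 (ENSMUSG00000039680), which has a bacterial homolog, had 16.8, 19.7 and 25.8 CPM as the lowest, median and highest value in brainstem and 9.22, 11.4 and 13.3 CPM in hippocampus. No hippocampus library reached the lowest brainstem library, and the log2 fold change was -0.88 with a standard error of 0.0456 (edgeR, adjusted p = 3.12e-23, the same form of error being used for the other genes). It shares 19.9% of its exonic bases with Gm49711 or Slc5a3, counted on either strand, and reads from these bases cannot be told apart here. The same limit holds for 13 of the 29 genes called lower, which share at least some exonic bases. The share is larger than that of Mrps6 for Mrps25 (69.8%), Mrpl43 (33.4%, with Twnk), Mrpl24 (26.3%, with Rrnad1), Mrps27 (24.2%) and Mrpl47 (24.2%). Mrps10 (ENSMUSG00000034729), also with a bacterial homolog, had 18.5, 23.4 and 29.6 CPM in brainstem and 12.2, 14.5 and 16.8 CPM in hippocampus. Again the regions did not overlap, and the log2 fold change was -0.70 ± 0.0407 (edgeR, adjusted p = 2.47e-21).

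Mrps36 (ENSMUSG00000061474) bears the name of a ribosomal protein but is known as a subunit of the 2-oxoglutarate dehydrogenase complex of the citric acid cycle. Its brainstem values were 23.6, 26.7 and 31.6 CPM and its hippocampus values 14.4, 16.6 and 20.1 CPM, without overlap, and it had a log2 fold change of -0.67 ± 0.0403 (edgeR, adjusted p = 8.30e-21). The other small-subunit genes called lower were Mrps22, Mrps27, Mrps31, Mrps5, Mrps15, Mrps25, Mrps21 and Mrps35, between -0.46 for Mrps22 and -0.36 for Mrps35.

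Large-subunit genes were called lower in 18 of 48 cases and higher in 1, beside 31.6% and 29.8% of all genes. Mrpl42 (ENSMUSG00000062981), a protein specific to mitochondria, had 40.6, 51.1 and 61.8 CPM in brainstem and 23.6, 28.9 and 37.0 CPM in hippocampus. The log2 fold change was -0.81 ± 0.0427 (edgeR, adjusted p = 6.39e-23), and every brainstem library lay above every hippocampus library. Mrpl18 (ENSMUSG00000057388), the counterpart of the bacterial protein that binds 5S rRNA, had 30.8, 35.1 and 41.5 CPM in brainstem and 18.3, 22.0 and 25.9 CPM in hippocampus. Its log2 fold change was -0.68 ± 0.0323 (edgeR, adjusted p = 9.10e-25), again without overlap.

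The large-subunit genes nearest to the fold threshold were Mrpl43, a protein specific to mitochondria, and Mrpl12. Mrpl43 had 14.2, 17.4 and 20.7 CPM in brainstem and 11.4, 13.8 and 17.2 CPM in hippocampus, with overlapping ranges and a log2 fold change of -0.33 ± 0.0426 (edgeR, adjusted p = 1.13e-09). Mrpl12 had 31.5, 45.4 and 63.2 CPM in brainstem and 30.4, 37.6 and 46.4 CPM in hippocampus, with a log2 fold change of -0.31 ± 0.0482 (edgeR, adjusted p = 1.39e-07). Mrpl12 was on the other side of the fold threshold in several alternative fits, at -0.24 with surrogate variables and -0.29 with DESeq2, and leaving out single libraries moved it between -0.32 and -0.29. Just beyond the threshold, Mrpl17 at -0.27 ± 0.0387 was not called.

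The 3 genes called higher in hippocampus have different positions in the ribosome. Mrps17 (ENSMUSG00000034211), a small-subunit protein with a bacterial homolog, had 22.6, 31.9 and 38.2 CPM in brainstem and 41.3, 46.0 and 48.9 CPM in hippocampus. It was the only one of them without overlap between the regions, at a log2 fold change of 0.51 ± 0.0339 (edgeR, adjusted p = 4.19e-19). Mrpl57 (ENSMUSG00000021967), a short large-subunit protein specific to mitochondria, had 8.82, 10.6 and 14.8 CPM in brainstem and 11.4, 16.2 and 19.1 CPM in hippocampus. The ranges overlapped, and the log2 fold change was 0.58 ± 0.0516 (edgeR, adjusted p = 1.31e-14). Mrps26 (ENSMUSG00000037740), of the small subunit and specific to mitochondria, had 18.3, 22.8 and 28.3 CPM against 23.1, 29.2 and 36.0 CPM, with a log2 fold change of 0.34 ± 0.0428 (edgeR, adjusted p = 6.09e-10). Scaled by library totals alone it stood at 0.29, under the fold threshold.

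Grouped by origin, 16 of 44 genes with a bacterial homolog were called lower and 1 higher. Of 27 genes specific to mitochondria, 12 were called lower and 2 higher. Over all 13993 genes 31.6% were called lower and 29.8% higher, and no group of this paragraph was tested against these shares. Of the 7 genes of the polypeptide exit tunnel, 4 were lower and none higher, among them Mrpl24 at -0.51 and Mrpl22 at -0.36. Of the 3 stalk genes, Mrpl12 was lower as given above, while Mrpl10 at 0.12 ± 0.0330 and Mrpl11 at 0.22 ± 0.0377 had adjusted p-values of 7.39e-04 and 5.52e-07 (edgeR) but stayed under the fold threshold. Of the 11 genes on the list of those mutated in human disease, 3 were called lower and none higher.

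The 3 Mrps18 paralogs derive from 1 bacterial ancestor and occupy different places in the mitoribosome. Mrps18c, the one that keeps the bacterial position, had a log2 fold change between regions of -0.04 ± 0.0508 (edgeR, adjusted p = 0.478), and Mrps18b, of the small subunit, one of -0.08 ± 0.0607 (adjusted p = 0.214). Mrps18a, which belongs to the large subunit despite its name, was at -0.21 ± 0.0334 (edgeR, adjusted p = 2.23e-07), under the fold threshold. Per exon length Mrps18c had 11.3 ± 1.51 RPKM in brainstem, Mrps18a 9.63 ± 0.934 and Mrps18b 2.88 ± 0.398 (SD, n = 23), so that the difference between the first and the last was many times the spread. Mrps30, the other large-subunit protein with a small-subunit name, was at -0.11 ± 0.0366 (edgeR, adjusted p = 7.16e-03) and 2.69 ± 0.187 RPKM in brainstem.

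Of the 5 listed mitoribosomal proteins that carry other names, 3 were called lower in hippocampus and none higher, with a median log2 fold change of -0.35. Over all genes 31.6% were called lower and 29.8% higher, and neither these proteins nor the lists that follow were tested against these shares. Ptcd3, an RNA-binding protein of the small subunit, had a mean of 62.7 CPM (SD 5.14) in brainstem and 43.5 CPM (SD 2.60) in hippocampus (log2 fold change -0.53). Chchd1 and Aurkaip1, both of the small subunit, fell by 0.43 and 0.35. Dap3, a GTP-binding protein of the small subunit, was at -0.04 and Gadd45gip1, of the large subunit, at -0.09, and neither was called. Among the factors that work with the ribosome, 4 of 11 translation factors were called lower and none higher, including the recycling factor Mrrf (-0.55) and the elongation factors Tufm (-0.41) and Gfm1 (-0.39). Of 23 assembly factors 8 were lower and 2 higher. Of 22 genes listed for the charging of mitochondrial tRNAs 4 were lower and 4 higher. Most of these encode aminoacyl-tRNA synthetases, but Gatb (called higher), Gatc and Qrsl1 (called lower) encode subunits of an amidotransferase. Gars and Kars, both called lower, also serve cytosolic tRNAs. Of 8 genes of mitochondrial transcription and mRNA 2 were lower and none higher. The 13 mitochondrially encoded proteins, the products of these ribosomes, had 3 mRNAs called lower (mt-Nd1, mt-Nd3 and mt-Atp8) and none higher. Without the fold threshold 12 of the 13 were lower, 92.3% against 44.9% of all genes, and their median log2 fold change was -0.25.

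2 other gene families were measured beside the mitoribosomal genes. Of 78 tested genes for cytosolic ribosomal proteins, 11 (14.1%) were called lower in hippocampus and 9 (11.5%) higher, with a median log2 fold change of -0.07. Of 36 nuclear genes for complex I of the respiratory chain, 22 (61.1%) were lower and none higher, with a median of -0.42. Over all genes the shares were 31.6% lower and 29.8% higher. The mitoribosomal median of -0.17 lay between them, and the differences between the families were not tested.

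Cell type markers also differed between the regions. All 6 oligodendrocyte markers were called lower in hippocampus, and their sum was 12100 to 20600 CPM in brainstem and 2970 to 4630 CPM in hippocampus. The 6 neuronal markers summed to 5040 to 5820 and 4480 to 5200 CPM, with 4 called lower and 2 higher, and the 6 astrocyte markers to 2580 to 3460 and 3950 to 5020 CPM, with 3 lower and 2 higher. The 6 microglial markers, 4 of them called higher, summed to 220 to 359 and 281 to 360 CPM, and the 5 endothelial markers, 4 called lower, to 233 to 304 and 136 to 186 CPM. Their part in the difference of the mitoribosomal genes was not tested.

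Sequence properties were then set beside the calls, without a test. GC content of the longest transcript had a median of 49.7% in the 29 genes called lower, 49.9% in the 44 not called and 44.5% in the 3 called higher, and the Pearson r of log2 fold change with GC content was -0.0164 across the 76 genes. Union exon length had medians of 2093, 2541.5 and 4358 bases in the same order, and brainstem level had medians of 10.9, 9.69 and 4.91 RPKM. Across the 76 genes r with log2 length was 0.0167 and r with log2 brainstem RPKM was -0.16. These are descriptions across genes, which are not independent replicates.

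Promoter sequences, from the RefSeq table for GRCm38.p6 (250 bases before to 50 after a start), were found for 69 of the 78 genes. The ETS core CCGGAAG, which the factor GABPA binds, was present on either strand in 37.7% of these genes and in 12.9% of all 17492 protein-coding genes with a window. GCGCATGC, the core of the NRF1 site, was present in 11.6% against 3.94%, and AAGATGG, the core of the YY1 site, in 18.8% against 7.18%. CCGGAAG and AAGATGG can overlap in the letters AAG. GC content of the windows was 59.0% and 56.2%. The comparison genes were not limited to those tested in these tissues, and the shares among tested genes were not determined. Among the 25 genes with CCGGAAG that were tested between the regions 9 were called lower and 2 higher, and among the 43 without it 16 were called lower and 1 higher. A match is a description of letters in a window and does not show that a factor binds there.

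The windows of 4 genes are given because these genes lie near the ends of the regional ranking and hold 1 of the motifs, which is in capitals. They are chr10:95501900-95502199 on the minus strand for Mrpl42, chr17:12916042-12916341 on the minus strand for Mrpl18, chr2:130563507-130563806 on the plus strand for Mrps26 and chr14:57825989-57826288 on the plus strand for Mrpl57, each read 5′ to 3′ in the direction of transcription. Mrpl18 and Mrpl57 have CCGGAAG as printed, Mrps26 has it on the opposite strand, and Mrpl42 has AAGATGG.
Mrpl42: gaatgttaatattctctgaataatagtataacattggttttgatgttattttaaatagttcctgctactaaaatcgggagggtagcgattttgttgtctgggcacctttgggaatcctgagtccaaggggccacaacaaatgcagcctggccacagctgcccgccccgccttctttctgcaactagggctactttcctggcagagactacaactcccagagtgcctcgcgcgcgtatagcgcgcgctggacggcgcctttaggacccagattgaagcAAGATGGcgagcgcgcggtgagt
Mrpl18: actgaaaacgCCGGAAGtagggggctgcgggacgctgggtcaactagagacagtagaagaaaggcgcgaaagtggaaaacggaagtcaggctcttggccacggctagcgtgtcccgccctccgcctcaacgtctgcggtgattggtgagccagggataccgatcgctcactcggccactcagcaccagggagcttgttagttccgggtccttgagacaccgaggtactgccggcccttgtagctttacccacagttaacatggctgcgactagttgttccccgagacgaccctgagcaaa
Mrps26: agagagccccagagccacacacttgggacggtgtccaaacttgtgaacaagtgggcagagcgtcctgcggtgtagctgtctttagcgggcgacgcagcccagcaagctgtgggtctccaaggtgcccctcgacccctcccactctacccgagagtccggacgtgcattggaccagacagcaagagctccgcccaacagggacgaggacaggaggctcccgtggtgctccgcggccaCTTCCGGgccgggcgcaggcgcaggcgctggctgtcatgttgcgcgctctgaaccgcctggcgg
Mrpl57: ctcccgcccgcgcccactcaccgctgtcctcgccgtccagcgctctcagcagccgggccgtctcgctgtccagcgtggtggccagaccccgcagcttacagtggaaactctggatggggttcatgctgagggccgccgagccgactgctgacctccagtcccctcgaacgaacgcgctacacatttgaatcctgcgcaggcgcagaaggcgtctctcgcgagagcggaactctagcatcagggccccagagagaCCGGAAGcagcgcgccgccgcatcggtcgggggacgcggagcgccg

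Genotype and diet were then compared within each region by 5 contrasts. These were TG_SD/WT_SD and TG_HFD/WT_HFD for the genotype on each diet, WT_HFD/WT_SD and TG_HFD/TG_SD for the diet in each genotype, and the interaction, which is the genotype difference on HFD minus that on SD. The contrasts share groups and so are not independent of each other. The fit held the 4 group means and 4 surrogate variables, which are patterns of variation between libraries estimated from the counts of all tested genes. Such patterns can overlap with the groups, so including them can also take up part of a group difference. How TG_HFD/WT_HFD depends on them is given below.

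With the 4 surrogate variables, none of the 76 genes was called in any of the 10 contrasts by edgeR or by DESeq2. The smallest adjusted p in edgeR was 0.0849, for Mrpl21 in brainstem, and log2 fold changes stayed between -0.26 and 0.25. In brainstem, 5 genes had an unadjusted p of at most 0.05 in TG_SD/WT_SD, 0 in TG_HFD/WT_HFD, 1 in WT_HFD/WT_SD, 6 in TG_HFD/TG_SD and 2 in the interaction. In hippocampus these counts were 6, 4, 2, 2 and 1.

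Few genes of any kind were called in these contrasts with the 4 surrogate variables. Without them, 3.56% of all tested hippocampus genes were called lower in TG_HFD/WT_HFD. The study, with DESeq2, surrogate variables and the same limits for a call, reported larger numbers of genes in both regions. In brainstem 0.142% of the 13340 tested genes were called in TG_SD/WT_SD, 0.0525% in TG_HFD/WT_HFD, 0% in WT_HFD/WT_SD, 0.0075% in TG_HFD/TG_SD and 0.0075% in the interaction, and the shares at an unadjusted p of at most 0.05 were 10.5%, 5.59%, 5.43%, 6.91% and 4.83%. In hippocampus 0.098%, 0.226%, 0%, 0% and 0% of 13272 genes were called, with 9.08%, 11.3%, 6.41%, 7.08% and 5.98% at an unadjusted p of at most 0.05. The mitoribosomal share at that p was 6.58% in TG_SD/WT_SD and 7.89% in TG_HFD/TG_SD of brainstem, 7.89% in TG_SD/WT_SD and 5.26% in TG_HFD/WT_HFD of hippocampus, and at most 2.63% in the other contrasts, so it exceeded the background only for TG_HFD/TG_SD in brainstem. Median standard errors of the 76 genes were between 0.0613 and 0.101 on the log2 scale.

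**Figure D3:**
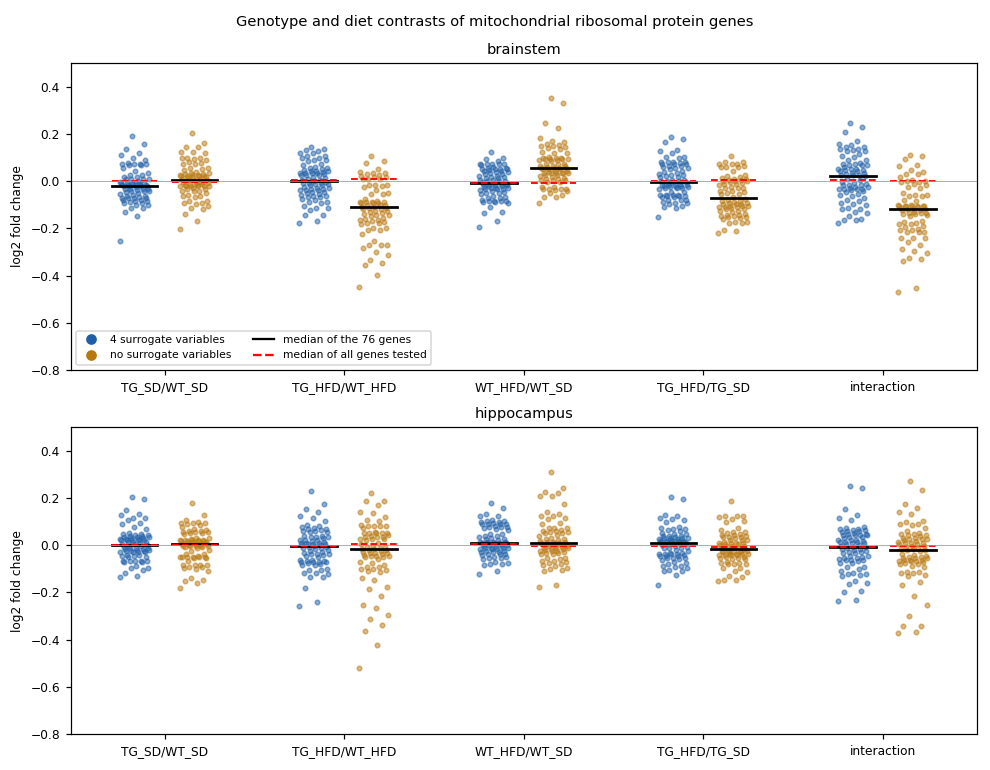
Log2 fold changes of the 76 genes (points) in the 5 contrasts of each region, with 4 surrogate variables in blue and with none in orange. Black lines are medians of the 76 genes and dashed red lines medians of all tested genes. With surrogate variables the medians lie between -0.02 and 0.02, and without them the brainstem median is -0.11 in TG_HFD/WT_HFD and 0.05 in WT_HFD/WT_SD.

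For TG_SD/WT_SD in brainstem the genes with the smallest p were Mrpl21 and Mrpl1, large-subunit proteins with bacterial homologs, Mrpl1 lying in the mobile stalk where tRNA leaves the ribosome. Mrpl21 had 20.7, 20.9, 21.6, 23.6 and 25.4 CPM in the 5 WT_SD libraries and 16.9, 20.0 and 21.1 CPM as the lowest, median and highest of the TG_SD libraries. The groups overlapped between 20.7 and 21.1 CPM, and the log2 fold change was -0.25 ± 0.0610 (edgeR, adjusted p = 0.0849). Mrpl1 had 17.1, 17.3, 17.6, 17.7 and 23.3 CPM in WT_SD and 19.7, 21.4 and 23.1 CPM in TG_SD, with a log2 fold change of 0.16 ± 0.0591 (edgeR, adjusted p = 0.311). A single WT_SD library lay above all TG_SD libraries for Mrpl1 and the other 4 lay below all of them.

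For TG_HFD/WT_HFD in brainstem, Mrpl49, of the large subunit and specific to mitochondria, had 29.0, 32.1 and 33.6 CPM in WT_HFD and 30.5, 32.0 and 37.9 CPM in TG_HFD, at 0.13 ± 0.0639 on the log2 scale (edgeR, adjusted p = 0.884). Mrpl46, another protein specific to mitochondria, which shares 12.2% of its exonic bases with Mrps11, had 22.6, 27.4 and 33.0 CPM in WT_HFD and 21.5, 24.2 and 26.0 CPM in TG_HFD, at -0.17 ± 0.0835 (edgeR, adjusted p = 0.884). The groups overlapped for both genes. For TG_HFD/TG_SD, Mrpl49 had 26.4, 31.0 and 36.2 CPM in TG_SD and stood at 0.19 ± 0.0540 (edgeR, adjusted p = 0.464), and Mrpl23, of the exit tunnel, had 17.5, 20.0 and 24.0 CPM in TG_SD and 19.2, 21 and 23.9 CPM in TG_HFD, at 0.18 ± 0.0709 (adjusted p = 0.594).

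The diet contrast of WT brainstem was led by Mrpl11 of the stalk base and Mrpl14, a protein of the subunit interface. Mrpl11 had 26.5, 27.9, 29.5, 32.1 and 38.2 CPM in WT_SD and 26.3, 28.3 and 35.9 CPM in WT_HFD, at -0.13 ± 0.0603 (edgeR, adjusted p = 0.910). Mrpl14 had 9.13, 9.67, 11.3, 11.3 and 12.3 CPM in WT_SD and 8.81, 11.1 and 15.3 CPM in WT_HFD, at -0.20 ± 0.0995 (edgeR, adjusted p = 0.921). The mean CPM of Mrpl14 was higher in WT_HFD, 11.8 against 10.7, and its log2 fold change was 0.14 without surrogate variables, so its direction depended on the surrogate variables. The interaction in brainstem was led by Mrpl49 at 0.23 ± 0.0829 and by Mrps26 at 0.25 ± 0.0967, both with an adjusted p of 0.993 (edgeR).

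In hippocampus, TG_SD/WT_SD was led by Mrps21 and by Mrpl48, a large-subunit protein specific to mitochondria. Mrps21 had 18.4, 22.1 and 23.8 CPM in WT_SD and 20.7, 24.7 and 27.8 CPM in TG_SD, at 0.20 ± 0.0643 (edgeR, adjusted p = 0.248). Mrpl48 had 51.8, 56.3 and 59.3 CPM in WT_SD and 56.1, 58.7 and 64.8 CPM in TG_SD, at 0.12 ± 0.0379 (edgeR, adjusted p = 0.262). For both genes the medians differed by less than the range within a group.

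TG_HFD/WT_HFD in hippocampus was led by Mrpl41 at 0.15 ± 0.0618 (edgeR, adjusted p = 0.305) and Mrpl57 at 0.23 ± 0.0946 (edgeR, adjusted p = 0.317). Mrpl57 had 15.3, 16.5 and 18.2 CPM in WT_HFD and 14.7, 16.7 and 18.1 CPM in TG_HFD, nearly the same values, and its log2 fold change without surrogate variables was -0.0053. WT_HFD/WT_SD was led by Mrpl13, with a bacterial homolog, at 0.18 ± 0.0730 (edgeR, adjusted p = 0.722) and Mrpl41 at -0.11 ± 0.0527 (adjusted p = 0.760). TG_HFD/TG_SD was led by Mrpl57 at 0.20 ± 0.0685 (edgeR, adjusted p = 0.518) and by Mrpl22, of the exit tunnel, at -0.17 ± 0.0776 (adjusted p = 0.673). In the interaction, Mrpl57 stood at 0.25 ± 0.109 (edgeR, adjusted p = 0.770) and Mrpl18 at -0.19 ± 0.0962 (adjusted p = 0.834).

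The Mrps18 paralogs, Mrps30, the stalk genes and Mrps36 were not called in any of the 10 contrasts. Over these contrasts the 3 Mrps18 paralogs lay between -0.12 and 0.20 on the log2 scale and Mrps30 between -0.04 and 0.08. The stalk genes Mrpl10, Mrpl11 and Mrpl12 lay between -0.13 and 0.11, and Mrps36 between -0.20 and 0.13, with a smallest adjusted p of 0.449 (edgeR) among these 8 genes. None of the 5 mitoribosomal proteins with other names, 11 translation factors and 23 assembly factors was called in any of the 10 contrasts. The same held for the 22 genes listed for tRNA charging, 8 transcription and mRNA genes and 13 mitochondrially encoded proteins. The smallest adjusted p among all of these was 0.127 (edgeR), for mt-Co3. Nor was any of the 78 cytosolic ribosomal protein genes or of the 36 complex I genes called in these fits with surrogate variables.

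The result for TG_HFD/WT_HFD depended on the surrogate variables, and the values without them are given beside it. In hippocampus 3 of the 76 genes were then called, all lower in TG_HFD, a share of 3.95% against 3.56% of all genes called lower, and 11 genes were lower at an unadjusted p not above 0.05, 14.5% against 13.8%. The shares were therefore close to those of all genes. The 3 genes, named after their values were seen, were Mrps12, the counterpart of a bacterial protein of the decoding centre, Mrpl54, a large-subunit protein specific to mitochondria, and Mrpl36, with a bacterial homolog.

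Mrps12 had 17.5, 22.0 and 26.8 CPM in WT_HFD and 12.9, 15.0 and 18.2 CPM in TG_HFD, overlapping between 17.5 and 18.2 CPM, at -0.52 ± 0.116 (edgeR without surrogate variables, adjusted p = 0.00688). With the 4 surrogate variables its log2 fold change was -0.02 ± 0.0891 (edgeR, adjusted p = 0.956). Mrpl54 had 10.1, 11.2 and 13.4 CPM in WT_HFD and 8.01, 8.52 and 9.48 CPM in TG_HFD, without overlap, at -0.42 ± 0.0972 without surrogate variables (edgeR, adjusted p = 0.00809) and -0.24 ± 0.106 with them (adjusted p = 0.364). Mrpl36 had 13.8, 16.3 and 19.4 CPM in WT_HFD and 11.2, 12.9 and 15.5 CPM in TG_HFD, at -0.34 ± 0.103 (edgeR without surrogate variables, adjusted p = 0.0419) and -0.26 ± 0.106 with them (adjusted p = 0.329).

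Beside Mrpl54, CPM of Mrps26 and Mrpl28 did not overlap between WT_HFD and TG_HFD in hippocampus, both lower in TG_HFD. These 3 genes are 3.95% of the 76, against 4.15% of all tested genes. Mrps26 had 28.9, 32.0 and 35.9 CPM in WT_HFD and 24.5, 26.6 and 28.7 CPM in TG_HFD. These CPM are not adjusted for surrogate variables. With them, log2 fold changes over the 10 contrasts lay between -0.11 and 0.25 for Mrps26 and between -0.13 and 0.17 for Mrpl28. In the other contrasts no mitoribosomal gene was without overlap, where the shares of all genes were 0.532% for TG_SD/WT_SD, 0.682% for TG_HFD/WT_HFD, 0.427% for WT_HFD/WT_SD and 0.172% for TG_HFD/TG_SD in brainstem, and 0.264%, 0.467% and 0.0226% for TG_SD/WT_SD, WT_HFD/WT_SD and TG_HFD/TG_SD in hippocampus.

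**Figure D4:**
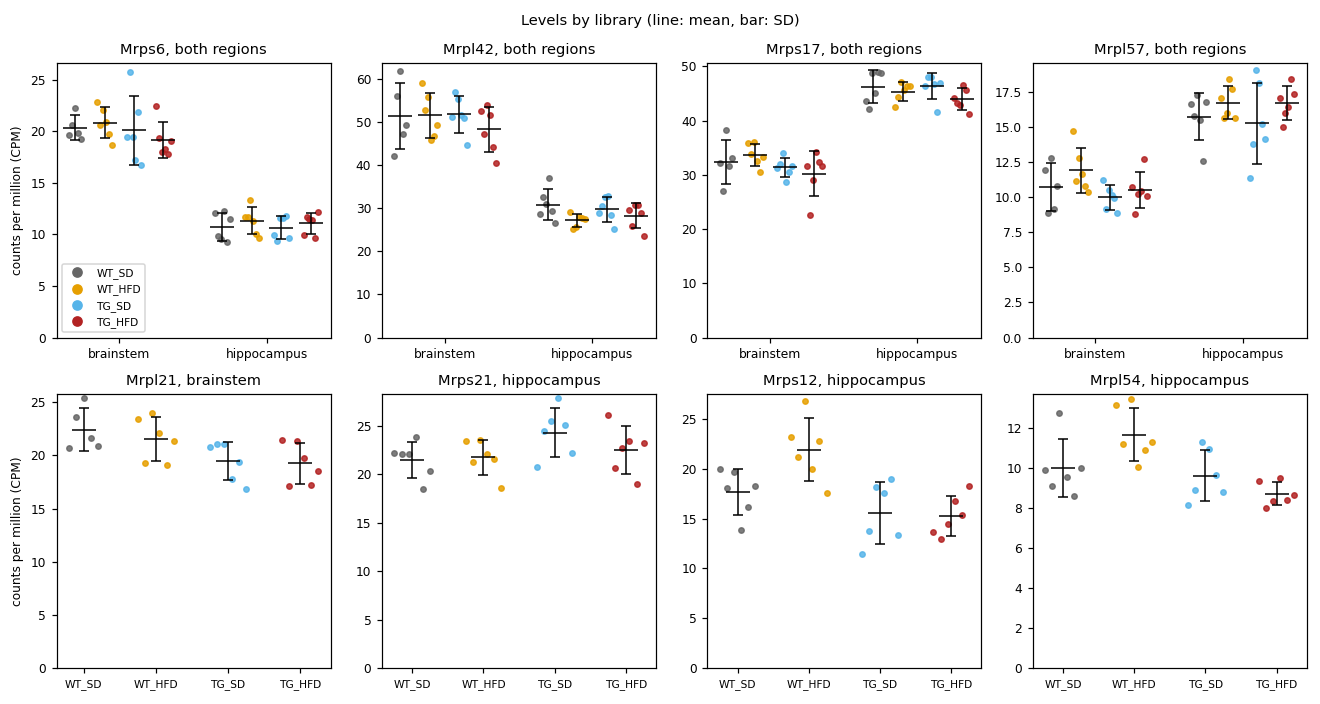
CPM in every library (points) with the mean and SD of each group. The upper row shows Mrps6, Mrpl42, Mrps17 and Mrpl57 in both regions, where the regions differ and the 4 groups of a region lie together, and the lower row shows Mrpl21 in brainstem and Mrps21, Mrps12 and Mrpl54 in hippocampus by group, with TG_HFD below WT_HFD for Mrpl54 in every library.

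In brainstem without surrogate variables the genes shifted together in TG_HFD/WT_HFD. The median log2 fold change was -0.11 against 0.0076 over all genes, 61 of the 76 were lower in TG_HFD, and 14 were lower at an unadjusted p not above 0.05, 18.4% against 9.24% of all genes. No gene was called, and 0% of all genes were called lower. With surrogate variables the median was -0.00065, with 38 genes lower and 38 higher. Cytosolic ribosomal protein genes and complex I genes had medians of -0.11 and -0.19 in the same fit without surrogate variables.

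The mean of the 76 genes also varied between libraries within groups. As the mean log2 deviation from the average of a region, it ran from -0.18 to 0.08 in the TG_HFD and from -0.08 to 0.19 in the WT_HFD libraries of brainstem, 2 overlapping ranges, and from -0.08 to 0.05 and -0.03 to 0.09 in hippocampus. The dependence of a library on GC content was measured as the slope of its log2 deviations over all other genes, per 10 percentage points of GC. Median slopes were -0.0205 in TG_HFD and 0.132 in WT_HFD of brainstem and -0.0553 and 0.119 in hippocampus, so libraries of WT_HFD tended to have more counts for GC-rich genes.

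With group means taken off, the GC slope and the mean of the 76 genes were related in the 24 hippocampus libraries (Pearson r = 0.600, permutation p = 0.00216, adjusted over 2 regions 0.00432; Spearman rho = 0.666, permutation p = 0.00058, adjusted 0.00116). Without the 2 libraries of the most extreme slope r was 0.510. In the 23 brainstem libraries r was 0.178 (permutation p = 0.420) and rho 0.0889 (permutation p = 0.689), and r was -0.069 without the 2 most extreme libraries. Across the 76 genes, log2 fold changes of TG_HFD/WT_HFD without surrogate variables had a Pearson r with GC content of -0.563 in brainstem and -0.589 in hippocampus, and of 0.0936 and -0.227 with surrogate variables, as a description over genes that share the same libraries. The part of GC content in the differences between TG_HFD and WT_HFD was not tested further.

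**Figure D5:**
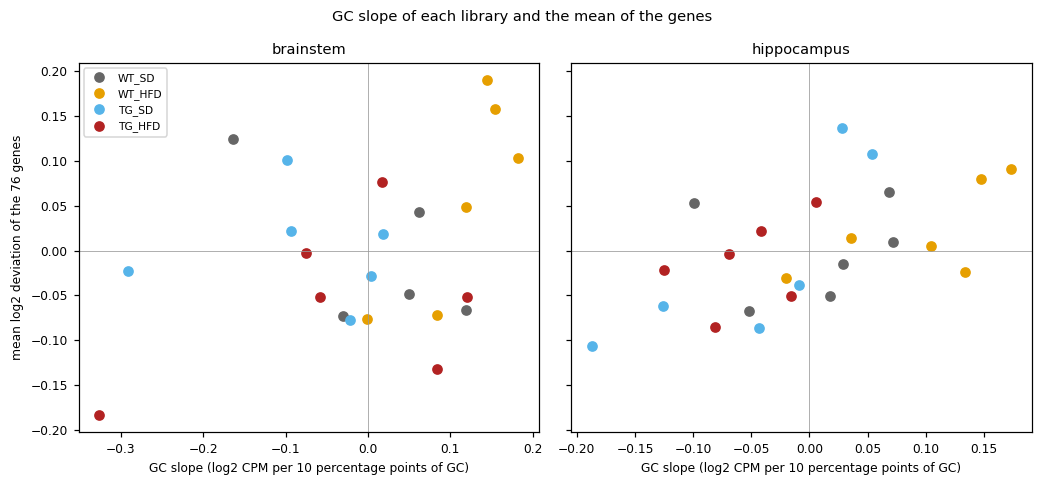
GC slope of each library (horizontal, log2 CPM per 10 percentage points of GC content) against the mean log2 deviation of the 76 genes (vertical), by group, for the 23 brainstem and 24 hippocampus libraries. Median slopes are highest in WT_HFD of both regions, at 0.132 and 0.119.

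Within a group the genes varied by a median coefficient of variation of 9.76% in brainstem and 8.54% in hippocampus, against 10.8% and 9.07% over all tested genes. In brainstem it was lowest for Mrps31 (5.57%) and highest for Mrps11 (18.4%), and in hippocampus lowest for Mrpl45 (4.66%) and highest for Mrpl52 (16.7%). Over the libraries of a region, with group means taken off, the median Pearson r between 2 mitoribosomal genes was 0.344 in brainstem and 0.251 in hippocampus (2850 pairs each), and 87.3% and 84.2% of the pairs were positive, while the median over pairs of all tested genes was -0.003 in both regions. Mrpl41 was a member of the most alike pair in both, with Mrpl23 in brainstem (r = 0.873) and with Mrpl54 in hippocampus (r = 0.874). These correlations describe genes measured in the same libraries, which share depth and GC dependence.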

How the data were processed

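RNA sequencing of brainstem and hippocampus was analysed in 47 libraries, each assigned to its region, genotype and diet from the labels. The authors sequenced poly(A)-selected single-end libraries, checked reads with FastQC 0.11.9, aligned them with STAR 2.7.9a to the Ensembl mouse genome with the transgene added, and deposited counts of reads per gene without normalization. The transgene's own row is not reported here. How reads were assigned to genes, and whether strand was used, is not given in the sources used here, so genes that share exonic bases are uncertain. Symbols, exon lengths and GC content came from GENCODE M21, which is of another genome build than the alignment, so that no coordinates are printed except those of the RefSeq promoter table on its own build, GRCm38.p6.

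Counts were analysed in R 4.3.3 with edgeR 4.0.16 (TMM, quasi-likelihood test), surrogate variables from sva 3.50.0 (4 in each region) and Benjamini-Hochberg adjustment over all genes whose mean count reached 50 (13340 in brainstem, 13272 in hippocampus). The study's limits for a call were kept, an adjusted p not above 0.05 and a log2 fold change of 0.3 or more in size. Regions were compared in 1 model of 8 group means without surrogate variables, over 13993 genes. DESeq2 1.42.0 served as an alternative. Standard errors were derived from the quasi-likelihood F. CPM in the regional comparison were normalized over both regions, and otherwise within a region. The fits were tested on simulated counts. Permutation tests of the GC relation used 100000 permutations and were two-sided. No libraries of a group were duplicates: chi-square per degree of freedom between libraries of a group was 3.66 or more.

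Genes were named by a rule: the 2 genes with the smallest p in each contrast and region, the 5 largest and 5 smallest log2 fold changes among genes called between regions, the 4 highest and 4 lowest mean RPKM, the Mrps18 paralogs, Mrps30, Mrps36, the stalk genes and 5 mitoribosomal proteins with other names, and any gene called for genotype or diet. Other members are marked as named after their values were seen, or are given by lists. Members and lists were chosen with earlier results of these data known. Alternatives were other normalizations, filters, thresholds, numbers of surrogate variables, GC and length corrections, a replicate block and leaving out each library.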

Additional observations from a re-analysis of the deposited data

Results flagged for a closer look

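Of 135 groups of 5 or 6 libraries examined for the named genes, for the mean of the genes and for the GC slope, 8 had a library far from the others, where chance gives about 1 in 20. In brainstem, WT_SD replicate 6 was the highest for Mrpl1, at 23.3 CPM with the next library at 17.7, and for Mrps36, normalized over both regions, at 31.6 CPM with the next at 25.6. TG_HFD replicate 1 was the highest for Mrps6 on that scale, at 22.5 CPM with the next at 19.3. In hippocampus, WT_SD replicate 6 was the highest for Mrpl13, at 26.3 CPM with the next at 23.4, and WT_SD replicate 5 for Mrpl12, at 46.4 CPM with the next at 39.8 when normalized over both regions. WT_SD replicate 7 was the lowest for Mrpl57, at 12.2 CPM with the next at 15.5, or 12.6 and 15.6 CPM over both regions, counted as a separate group. TG_SD replicate 7 was the lowest for Mrps17, at 41.6 CPM with the next at 46.5, also over both regions. None of the 152 interactions of genotype and diet had an adjusted p of at most 0.05 in edgeR's quasi-likelihood test.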

How the results depend on the processing

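The count of 0 genes called for genotype or diet held in 9 of the 10 contrasts under every alternative except 1 chosen after seeing the data. For TG_HFD/WT_HFD in hippocampus it became 3 without surrogate variables, 4 with 1, 4 with 2, 1 with a GC correction, 4 with a length correction and 4 with only the groups compared, the last 3 without surrogate variables. Chosen after seeing the data, DESeq2 without surrogate variables called 4 there and 1 in TG_HFD/WT_HFD of brainstem. Between regions, 11 genes were higher and 51 lower without a fold threshold, 0 and 0 at a threshold of 1, and 5 were higher in WT_SD libraries alone. Leaving out 1 library gave 0 calls in every contrast of genotype and diet, 3 higher and 28 to 29 lower between regions.

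Replicate numbers did not meet the limit set for pairing, a correlation above 0.1 in every pair: deviations from group means correlated above 0.1 in 10 of 26 same-numbered pairs within brainstem, 15 of 36 within hippocampus and 8 of 17 pairs of the same group across regions, where the median was 0.0873 against -0.0229 for other numbers. The replicate block within genotype and diet across the regions, chosen after seeing the data, gave 3 higher and 29 lower. With a replicate block the counts were the same, 0 for every contrast of genotype and diet and 3 higher and 29 lower between regions, and with the replicate block and no surrogate variables 3 genes were called for TG_HFD/WT_HFD in hippocampus.

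2 named genes changed direction. Mrpl14 (WT_HFD/WT_SD, brainstem) was at 0.14 without surrogate variables, 0.0739 with 1, 0.0863 with the length correction, 0.15 with the replicate block, 0.14 with DESeq2 (chosen after seeing the data), all 3 without surrogate variables, and 0.14 with only the groups compared. Mrpl57 (hippocampus) was, for TG_HFD/WT_HFD, at -0.0053 without surrogate variables, -0.0040 with 1, -0.0105 with 2, -0.0742 with the GC correction, -0.0054 with the replicate block and -0.0052 with only the groups compared, and for the interaction at -0.0108 with the GC correction. The cause was not tested. Of the values of named genes under other settings, 373 kept direction and side of the threshold, 13 changed direction and 20 lost the call. With single libraries left out 735 kept both and 17, all of Mrpl12 between regions, lost the call.

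Mrps34 and Mrpl53 lay under the count filter and were not tested, and reads of shared exons could not be separated by strand.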
